A study of Rattus norvegicus with 20 samples.

Results

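This account covers 5 rows of a rat heart count table: ENSRNOG00000021156, the candidate row for the deleted Vegfb gene, and ENSRNOG00000021151, ENSRNOG00000021153, ENSRNOG00000043060 and ENSRNOG00000023023. They were selected on their levels in knockout against wild-type hearts, the first because it had almost no counts in knockout rats and the other 4 because they were lower in knockout control or knockout diabetic hearts. They are 5 of the 24059 rows of the table, and all 5 were among the 14293 rows that passed the filter on low counts. The table lists Ensembl IDs without gene names. The genes other than the candidate row are therefore given by ID alone, and the pairing of ENSRNOG00000021156 with Vegfb rests on its counts in knockout rats and not on an annotation.

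RNA was sequenced from the ventricles of 20 male rats, 1 library per rat and 5 rats in each of 4 groups. The WT control group held untreated wild-type littermates on the Sprague Dawley background, aged 9 weeks per the sample titles. The WT diabetic group held wild-type rats of the same strain, sex and age that received 55 mg/kg streptozotocin (STZ) into a vein and were sampled on day 4 of diabetes. STZ is a toxin taken up by the insulin-producing beta cells of the pancreas. The Vegfb KO control group carried a global disruption of Vegfb, made in Sprague Dawley rats with zinc-finger nucleases and a reporter gene inserted into the locus. These rats were also aged 9 weeks per the sample titles and received no STZ. The Vegfb KO diabetic group had the same disruption and age, with the STZ treatment and day of sampling of the WT diabetic group. The deletion is present in every cell type, so it does not separate loss in heart muscle cells from loss elsewhere. The study asked how loss of Vegfb alters the heart in early diabetes.

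Vegfb encodes a secreted growth factor of the vascular endothelial growth factor family. It binds the receptor Flt1 and the co-receptor Nrp1, which are found on endothelial cells, and does not bind the receptor Kdr through which Vegfa drives vessel sprouting. The heart is among the tissues with the most Vegfb RNA, and the factor is known there for its links to coronary vessels and to the handling of fatty acids.

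The total count ranged from 7314287 to 26664479 in WT control, from 12965611 to 23399247 in WT diabetic, from 18334499 to 24387305 in Vegfb KO control and from 7220469 to 21935785 in Vegfb KO diabetic libraries. A pair of libraries stood apart from the rest. In WT diabetic replicate 2 a single other row, ENSRNOG00000065867, took 23.4% of all counts. In Vegfb KO diabetic replicate 1, which also had the lowest total, it took 25.5%. Levels are given as CPM, counts on the scale of a common library size, after TMM, a normalization that allows for such rows. They are compared between groups for a given row and not between rows, since transcript lengths were not used here. In ventricle tissue as a whole, fewer cells of a type and less RNA per cell cannot be told apart.

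The candidate Vegfb row is given first, in every rat. In WT control rats, replicates 1 to 5, ENSRNOG00000021156 had 145, 136, 132, 136 and 141 CPM. In WT diabetic rats it had 109.9, 101, 124, 99.7 and 103 CPM. In Vegfb KO control rats it had 0.287, 1.26, 0.280, 0.119 and 0.574 CPM, and in Vegfb KO diabetic rats 0.599, 0.275, 0.323, 0 and 0.444 CPM. Every WT rat was far above every Vegfb KO rat, and in WT every diabetic rat was below every control rat. No library went against its genotype label, but the row was chosen by this pattern and is no independent check of the labels.

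The knockout values of ENSRNOG00000021156 rested on few counts. The rounded counts were 5, 25, 6, 3 and 13 in Vegfb KO control and 3, 6, 7, 0 and 10 in Vegfb KO diabetic libraries, where WT libraries had between 1020 and 3845. The highest of the 10 was Vegfb KO control replicate 2 and the lowest Vegfb KO diabetic replicate 4, whose count of 0 allows up to 0.196 CPM (a limit of 3 counts). Summed over 5 rats there were 52 counts in Vegfb KO controls (95% Poisson interval 38.8 to 68.2) and 26 in Vegfb KO diabetic rats (17.0 to 38.1). These limits cover counting error only. The group means (± SD, n = 5 each) were 138 ± 5.23 CPM in WT control, 108 ± 9.97 CPM in WT diabetic, 0.505 ± 0.455 CPM in Vegfb KO control and 0.328 ± 0.222 CPM in Vegfb KO diabetic rats. The mean in Vegfb KO hearts was 0.366% of that in WT among controls and 0.305% among diabetic rats, a log2 fold change of -8.11 (SE 0.26) and -8.45 (SE 0.29).

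The coefficient of variation of ENSRNOG00000021156 was 3.79% in WT controls and 9.28% in WT diabetic rats. It was set beside 3084 rows within 1 log2 unit of the mean CPM of ENSRNOG00000021156 over all libraries. The Vegfb KO libraries lower that mean, so the set was not matched to the WT level. Over these rows the median coefficient of variation was 8.42% in WT controls and 10.6% in WT diabetic rats. Of these rows 6.81% varied less than ENSRNOG00000021156 in WT controls and 38.9% in WT diabetic rats. The shares do not place it among rows at its own WT level.

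**Figure D1:**
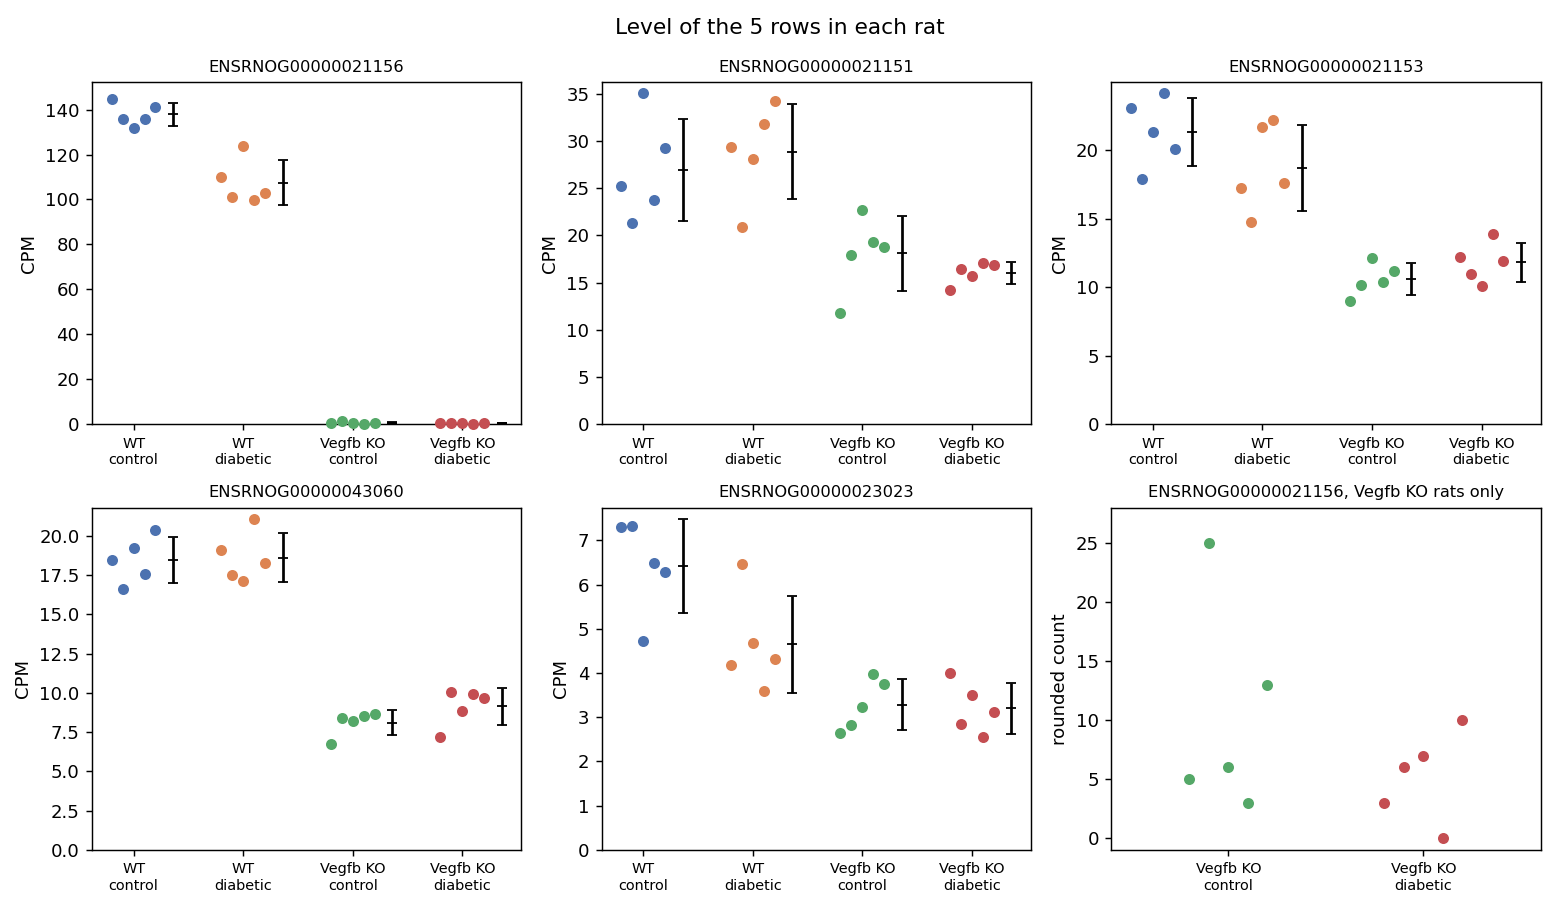
CPM of the 5 rows in each rat by group, with 1 point per rat and the group mean ± SD (n = 5) as a black bar beside it; the last panel gives the rounded counts of ENSRNOG00000021156 in Vegfb KO rats. The candidate Vegfb row lies between 99.7 and 145 CPM in WT and at most at 1.26 CPM in Vegfb KO rats, while the other 4 rows keep a measurable level in every Vegfb KO rat.

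Of the other 4 rows, ENSRNOG00000043060 had the largest difference between genotypes on the log2 scale. It had 18.5, 16.6, 19.2, 17.6 and 20.4 CPM in WT control and 19.1, 17.5, 17.1, 21.1 and 18.3 CPM in WT diabetic rats. In Vegfb KO it had 6.71, 8.40, 8.21, 8.54 and 8.66 CPM in control and 7.19, 10.1, 8.86, 9.92 and 9.67 CPM in diabetic rats. All 10 Vegfb KO rats were below all 10 WT rats, and replicate 1 was the lowest of each Vegfb KO group. Relative to WT, the level in Vegfb KO was 43.9% in controls and 49.1% in diabetic rats, a log2 fold change of -1.19 (SE 0.10) and -1.0 (SE 0.10). The order of the group means was WT diabetic, WT control, Vegfb KO diabetic and Vegfb KO control, with overlap between the groups of the same genotype.

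ENSRNOG00000021153 had 23.1, 17.9, 21.4, 24.2 and 20.1 CPM in WT control and 17.2, 14.8, 21.7, 22.2 and 17.6 CPM in WT diabetic rats. It had 9.01, 10.2, 12.1, 10.4 and 11.2 CPM in Vegfb KO control and 12.2, 11.0, 10.1, 13.9 and 11.9 CPM in Vegfb KO diabetic rats. The genotypes did not overlap in either condition, although WT diabetic replicate 2 at 14.8 CPM came close to Vegfb KO diabetic replicate 4 at 13.9 CPM. Relative to WT, the level in Vegfb KO was 49.6% in controls (log2 fold change -1.02, SE 0.12) and 63.1% in diabetic rats (-0.68, SE 0.12). The means stood in the order WT control, WT diabetic, Vegfb KO diabetic and Vegfb KO control, again with overlap within each genotype.

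ENSRNOG00000021151 had 25.2, 21.3, 35.0, 23.7 and 29.3 CPM in WT control and 29.4, 20.9, 28.1, 31.8 and 34.2 CPM in WT diabetic rats. It had 11.8, 17.9, 22.7, 19.3 and 18.7 CPM in Vegfb KO control and 14.2, 16.4, 15.7, 17.1 and 16.8 CPM in Vegfb KO diabetic rats. The control groups overlapped, because Vegfb KO control replicate 3 at 22.7 CPM was above WT control replicate 2 at 21.3 CPM, and the diabetic groups did not. Relative to WT, the level in Vegfb KO was 67.2% in controls (log2 fold change -0.58, SE 0.15) and 55.6% in diabetic rats (-0.84, SE 0.15). The spread was unequal, with a coefficient of variation of 22.0% in Vegfb KO control and 7.24% in Vegfb KO diabetic hearts.

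ENSRNOG00000023023 had 7.30, 7.31, 4.72, 6.50 and 6.28 CPM in WT control and 4.19, 6.47, 4.69, 3.58 and 4.32 CPM in WT diabetic rats. It had 2.64, 2.83, 3.22, 3.97 and 3.75 CPM in Vegfb KO control and 4.00, 2.84, 3.51, 2.55 and 3.11 CPM in Vegfb KO diabetic rats. The control groups did not overlap and the diabetic groups did, with WT diabetic replicate 4 below Vegfb KO diabetic replicate 1. Relative to WT, the level in Vegfb KO was 51.1% in controls (log2 fold change -0.96, SE 0.17) and 68.8% in diabetic rats (-0.56, SE 0.18). Its counts were the lowest of the 5 rows in WT libraries, from 55 to 184 in WT control and from 59 to 113 in WT diabetic rats.

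These differences between genotypes chose the rows. The calls given for them restate that choice, are a description and no test of the rows, and nothing is read from them. A row was called when its adjusted p was under 0.05 and its log2 fold change was above 0.27 in size. Called lower in Vegfb KO were 4 of the 5 rows among controls, where 0.0280% of all tested rows were, and 4 of the 5 among diabetic rats, where 0.0420% were. These shares count the 5 rows too and are no separate background. No row outside the 5 was called in controls, and 4 of the 6 rows called in diabetic rats were among the 5. ENSRNOG00000021151 was the row not called in controls and ENSRNOG00000023023 the row not called in diabetic rats. Across both conditions 7 rows were called in at least 1 comparison and 3 in both. These counts changed with the fit and with single libraries. In controls the call of ENSRNOG00000023023 was lost in the edgeR fit of the 2 groups alone and in 8 of the 20 fits with 1 library left out, those without WT control replicate 1, 2, 4 or 5 or Vegfb KO control replicate 1, 2, 3 or 5, which left 3 rows called. Its log2 fold change was -0.95 in the fit of the 2 groups and between -1.05 and -0.89 with 1 library left out, beside -0.96 in the planned fit. In diabetic rats ENSRNOG00000021153 was not called in the edgeR fit of the 2 groups alone, and with 1 library left out it lost its call in 8 of 20 fits and ENSRNOG00000021151 in 14. The log2 fold change of ENSRNOG00000021153 was -0.68 in the fit of the 2 groups and between -0.75 and -0.61 with 1 library left out. That of ENSRNOG00000021151 was between -0.93 and -0.77 with 1 left out. These fits reuse the values that chose the rows, so no stability is read from them. In 8 of the 20 only 2 of the 5 rows were called, namely without WT diabetic replicate 4 or 5, Vegfb KO control replicate 2 or 4, or Vegfb KO diabetic replicate 1, 2, 3 or 5. Over all tested rows, the 6 called in diabetic rats became 65 with DESeq2 and 181 in edgeR without WT diabetic replicate 3.

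The values on either side of the threshold come from the same differences and are given only to show where it fell. Of the 5 rows, those called nearest to it were ENSRNOG00000023023 in controls, with an adjusted p of 0.0298 from edgeR, and ENSRNOG00000021151 in diabetic rats, with 0.0409. Just outside it were ENSRNOG00000021158 in controls (log2 fold change -0.92, adjusted p 0.203 from edgeR) and ENSRNOG00000055078 in diabetic rats (-0.64, adjusted p 0.0581 from edgeR). The 2 called rows that are not among the 5 were called in diabetic rats only. They were ENSRNOG00000017249, at 62.3% of the WT level (adjusted p 0.0409 from edgeR), and ENSRNOG00000062578, at 29.5% with overlap between the genotypes and nearest to the threshold of the 6 rows called (adjusted p 0.0485 from edgeR).

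The differences between genotypes in the 2 conditions could be set side by side through their difference, which is made of the same values and is likewise a description. The diabetes response in Vegfb KO minus that in WT was -0.34 (SE 0.53) for ENSRNOG00000021156, -0.26 (SE 0.21) for ENSRNOG00000021151, 0.34 (SE 0.17) for ENSRNOG00000021153, 0.19 (SE 0.14) for ENSRNOG00000043060 and 0.39 (SE 0.24) for ENSRNOG00000023023 on the log2 scale.

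Of the 4 rows, ENSRNOG00000021151 and ENSRNOG00000021153 have ID numbers 5 and 3 below that of ENSRNOG00000021156, and the other 2 lie far from it. An ID number is a label, and the position of these genes on the chromosome was not analysed here. Within 10 numbers of ENSRNOG00000021156 the table holds 14 rows, of which 11 were tested, 3 of them among the 5 rows described. The 3 rows not tested had at most 5 counts in any library. The 8 tested rows outside the 5 had log2 fold changes between -0.92 and 0.10 in controls, with a median of -0.10, and between -0.89 and 0.01 in diabetic rats, with a median of -0.16. Of these 8, 6 were lower in Vegfb KO in both conditions. The median over all tested rows was 0 in each condition, and the share of all rows lower in both was not counted. None of the 8 was called by edgeR, where 0.0280% of all tested rows were in controls and 0.0420% in diabetic rats. ENSRNOG00000021158, at -0.92 and -0.89, was lower in both conditions than the listed ENSRNOG00000021151, at -0.58 and -0.84. ENSRNOG00000021161 had -0.465 and -0.64. The rows with the numbers directly before and after had values of -0.10 and 0.10 in controls and -0.06 and -0.37 in diabetic rats, all nearer to 0 than the values of ENSRNOG00000021151 and ENSRNOG00000021153 in the same condition.

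**Figure D2:**
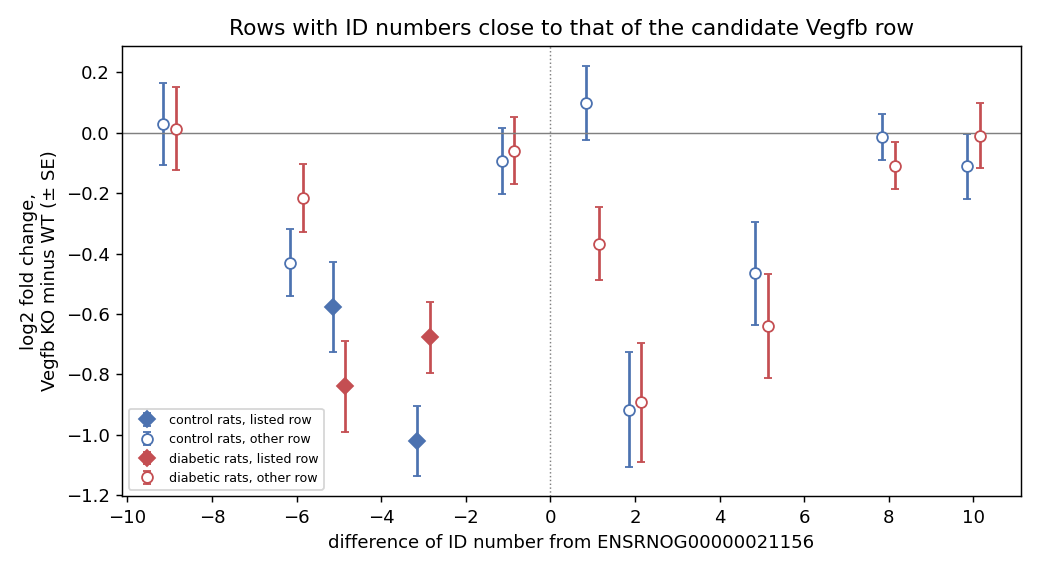
Log2 fold change, Vegfb KO minus WT (± SE), of the tested rows within 10 ID numbers of ENSRNOG00000021156, against the difference in ID number; that row itself is left out because its values of -8.11 and -8.45 would set the scale. Filled diamonds are ENSRNOG00000021151 and ENSRNOG00000021153, open circles the 8 other rows, blue control and red diabetic rats. The row 2 numbers above, ENSRNOG00000021158, lies at -0.92 and -0.89, and the rows 1 number away lie nearer to 0.

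The pattern over the 20 libraries was compared with that of ENSRNOG00000021156 by Pearson's r of log2 CPM, among 12768 rows with a mean of at least 1 CPM. By this measure the 4 other rows had the highest values, 0.940 for ENSRNOG00000043060, 0.885 for ENSRNOG00000021153, 0.799 for ENSRNOG00000021151 and 0.798 for ENSRNOG00000023023. Next came ENSRNOG00000021158 at 0.763 and ENSRNOG00000014963 at 0.757, and the lowest were ENSRNOG00000004624 at -0.786 and ENSRNOG00000017163 at -0.755. By Spearman's rho the order differed. ENSRNOG00000023023 had 0.853, ENSRNOG00000021153 0.791, ENSRNOG00000043060 0.695 and ENSRNOG00000021151 0.665, and ENSRNOG00000021158, outside the 5, had 0.830 and stood above all of them but ENSRNOG00000023023. Of the 12768 rows, with ENSRNOG00000021156 itself as the first, ENSRNOG00000043060 ranked 12 and ENSRNOG00000021151 ranked 22 by rho, so other rows outside the 5 were above them too. The 20 libraries form a WT cluster and a Vegfb KO cluster in this row, and the 4 rows were chosen by the same difference, so these values restate the choice and no p is given.

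The effect of diabetes was then compared within each genotype. In WT hearts ENSRNOG00000021156 was at 78.0% of its control level in diabetic rats, and ENSRNOG00000023023 at 72.4%, the 2 rows with the lowest relative levels of the 5. Neither was called by edgeR's quasi-likelihood test across all rows. In WT 0 of the 5 rows were called, where 13.1% of all tested rows were, with 2 of the 5 at an unadjusted p under 0.05 (27.0% of all tested rows) and 2 called by DESeq2 (14.1% of its rows). The median log2 fold change of the 5 rows was -0.19, beside 0.01 over all rows tested.

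For ENSRNOG00000021156 the log2 fold change in WT was -0.36 (SE 0.16, adjusted p = 0.162 from edgeR), lower in 5 of 5 diabetic rats than in any control rat. The standard error came from a model of all 4 groups, which also holds the Vegfb KO libraries with counts near 0. Fitted to the 10 WT libraries alone, edgeR gave the same log2 fold change of -0.36 with an SE of 0.08 and an adjusted p of 0.00740, and DESeq2 on all libraries gave -0.35 with an adjusted p of 0.000825. Over the alternatives the adjusted p ranged from 0.000825 to 0.286. The difference was thus past the threshold under some of the settings and not under the planned model.

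**Figure D3:**
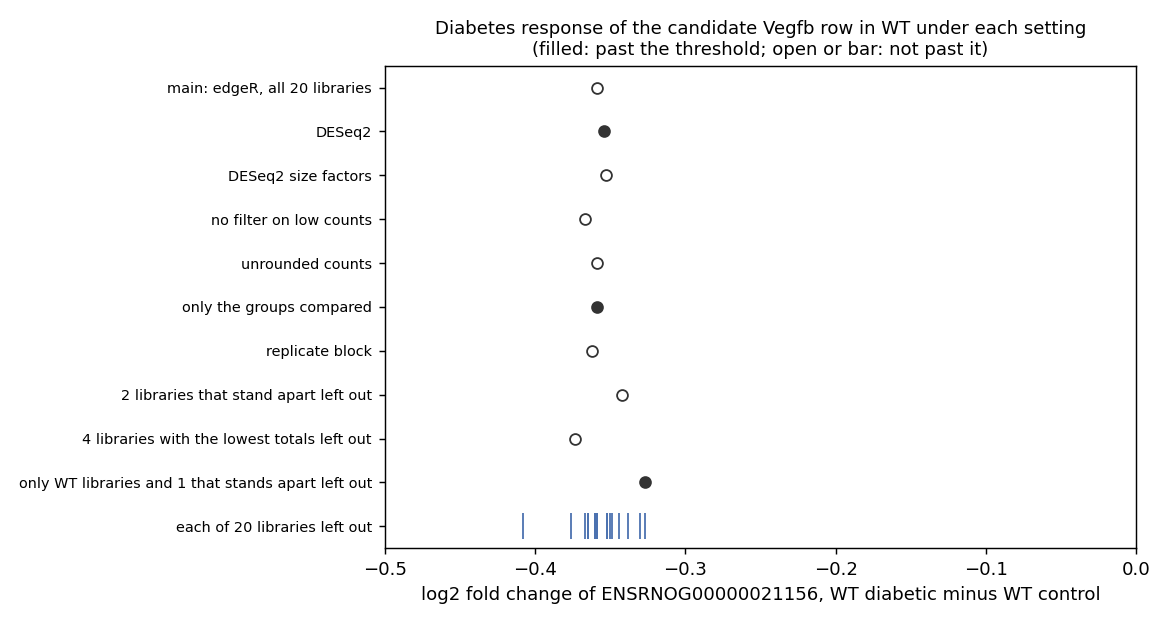
Log2 fold change of ENSRNOG00000021156, WT diabetic minus WT control, under the planned edgeR fit, each alternative fit and, as blue bars in the bottom line, each of the 20 libraries left out in turn. Filled points are past the threshold and open points are not, and every value lies between -0.41 and -0.33.

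ENSRNOG00000023023 had a log2 fold change of -0.47 in WT (SE 0.17, adjusted p = 0.0629 from edgeR), with 4 of 5 diabetic rats below every control rat. The exception was WT diabetic replicate 2 at 6.47 CPM, the library in which another row took 23.4% of the count, and the part of that library in the result was not tested beyond leaving it out. Without WT diabetic replicate 2 the value was -0.61 (adjusted p = 0.0145 from edgeR), without WT control replicate 3 it was -0.56 (adjusted p = 0.0247 from edgeR), and DESeq2 gave an adjusted p of 0.0480. The adjusted p ranged from 0.0124 to 0.203 over all alternatives. This row was chosen by its difference between the genotypes in controls, and the WT control values enter this comparison too, so the response in WT is not independent of the choice. The same holds in the other direction for ENSRNOG00000021151, chosen by its values in diabetic rats, which had 0.10 (SE 0.15, adjusted p = 0.721 from edgeR).

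The remaining rows did not pass the test in WT either. ENSRNOG00000021153 had a log2 fold change of -0.19 (SE 0.11, adjusted p = 0.288 from edgeR), and ENSRNOG00000043060 had 0.01 (SE 0.09, adjusted p = 0.984 from edgeR). For both, control and diabetic rats overlapped.

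In Vegfb KO hearts 0 of the 5 rows were called by edgeR, where 7.84% of all tested rows were, with 0 at an unadjusted p under 0.05 (21.4% of all tested rows) and 0 called by DESeq2 (9.20% of its rows). ENSRNOG00000043060 had a log2 fold change of 0.20 (SE 0.10, adjusted p = 0.253 from edgeR), ENSRNOG00000021153 had 0.15 (SE 0.12), ENSRNOG00000023023 -0.08 (SE 0.18) and ENSRNOG00000021151 -0.17 (SE 0.15). Control and diabetic rats overlapped in each. The Vegfb KO values also entered the choice of ENSRNOG00000023023 in controls and of ENSRNOG00000021151 in diabetic rats, so these 2 responses are not independent of it. ENSRNOG00000021156 passed the filter on low counts only through its WT libraries. Its value of -0.70 (SE 0.51) in Vegfb KO rested on 52 counts in controls and 26 in diabetic rats. It was -0.05 without Vegfb KO control replicate 2. Nothing is read from this value, and the row's place among the 5 not called says nothing about a response.

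The mean of both diabetes responses gives each genotype the same weight and does not compare the genotypes. By edgeR 0 of the 5 rows were called for it, where 16.2% of all tested rows were. Over all rows 2317 were called for it, with 2047 to 2478 over the alternatives and 2045 to 2509 with 1 library left out. The edgeR test gave 1 of the 5, ENSRNOG00000023023, an unadjusted p under 0.05 (34.8% of all tested rows). DESeq2 called 1 of the 5, a different row, ENSRNOG00000021156 (15.7% of its rows). ENSRNOG00000021156 had -0.53 (SE 0.27, adjusted p = 0.170 from edgeR), a mean into which its near-0 Vegfb KO counts enter. ENSRNOG00000023023 had -0.27 (SE 0.12, adjusted p = 0.113 from edgeR). The others had 0.10 for ENSRNOG00000043060, -0.02 for ENSRNOG00000021153 and -0.03 for ENSRNOG00000021151. Without WT diabetic replicate 2, ENSRNOG00000023023 was called at -0.34 (adjusted p = 0.0334 from edgeR). The value of ENSRNOG00000021156 depended on single Vegfb KO libraries. It was -0.21 without Vegfb KO control replicate 2 (adjusted p = 0.576 from edgeR) and was called at -0.67 without Vegfb KO control replicate 4 (adjusted p = 0.0486 from edgeR).

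**Figure D4:**
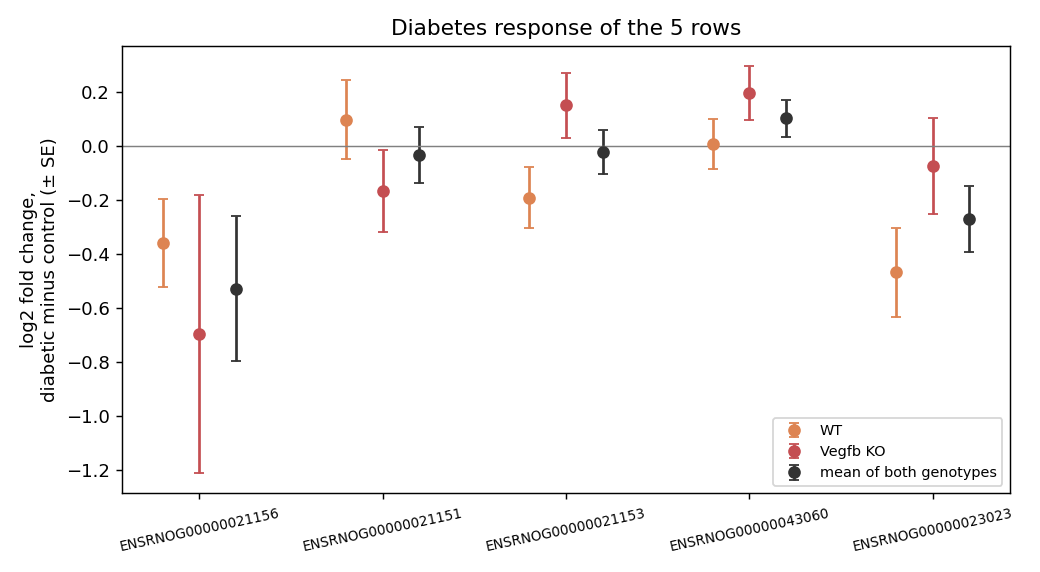
Log2 fold change, diabetic minus control (± SE), of the 5 rows in WT, in Vegfb KO and as the mean of both genotypes, from the edgeR fit of 20 libraries. ENSRNOG00000021156 and ENSRNOG00000023023 lie lowest in WT at -0.36 and -0.47, the bar of ENSRNOG00000021156 in Vegfb KO is the widest with an SE of 0.51, and no point passed the threshold.

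Whether the rows vary together from rat to rat was examined apart from genotype and diabetes. Each rat's log2 CPM was expressed as its deviation from the mean of its own group of 5, and the 10 pairs of rows were correlated over the 10 rats of each genotype, 20 relations in all. An exact permutation test shuffled 1 row within each group (two-sided, 14400 arrangements), with Benjamini-Hochberg adjustment over the 20. No relation passed an adjusted p under 0.05 on Pearson's r (0 of 20), and 3 had an unadjusted exact p under 0.05. Pearson's r ranged from -0.890 to 0.656 in WT, with 5 of 10 above 0, and from -0.320 to 0.722 in Vegfb KO, with 6 of 10 above 0.

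For the candidate Vegfb row no relation with the others passed the threshold in WT rats. Its r was -0.06 with ENSRNOG00000021151, 0.33 with ENSRNOG00000021153, -0.29 with ENSRNOG00000043060 and 0.17 with ENSRNOG00000023023, and the lowest exact permutation p of these 4 was 0.467. The Spearman values were -0.19, 0.13, -0.25 and 0.25. With ENSRNOG00000023023 r was 0.593 without WT diabetic replicate 2 (exact permutation p = 0.0486, adjusted 0.243), and 0.665 over pooled log2 CPM with the group means kept (permutation p = 0.0426, adjusted 0.286), where both rows had lower means in diabetic rats. In Vegfb KO rats its counts of 0 to 25 are too few for such a relation to be read.

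The relation with the lowest p was between ENSRNOG00000021151 and ENSRNOG00000023023 in WT rats, and it was negative. WT diabetic replicate 2 had the lowest ENSRNOG00000021151, -0.45 from its group mean on the log2 scale, and the highest ENSRNOG00000023023, 0.50 above. It is the library in which another row took 23.4% of the count. WT control replicate 3 had the highest ENSRNOG00000021151, 0.40 above its group, and the lowest ENSRNOG00000023023, -0.42. Pearson's r was -0.890 (exact permutation p = 0.00465, adjusted 0.0931) and Spearman's rho -0.903 (exact permutation p = 0.00250, adjusted 0.05). Without these 2 rats, the farthest from the median of ENSRNOG00000021151, r was -0.507 (exact permutation p = 0.222), so the strength of the relation rests in part on them, and their removal also narrows the range of ENSRNOG00000021151. With any 1 WT rat left out, a setting added after the data were seen, r lay between -0.922 and -0.806. The value of -0.806 was the one without WT diabetic replicate 2. Without WT diabetic replicate 5 the relation passed the threshold (r = -0.922, exact permutation p = 0.00243, adjusted 0.0486). In Vegfb KO rats the same pair had an r of 0.229 and a rho of 0.0909 (exact permutation p = 0.647 and 0.820, adjusted 0.792 and 0.820). The sign of r turned without Vegfb KO control replicate 1, to -0.450, and without the 2 farthest rats, to -0.503. No direction is therefore read in Vegfb KO, and a difference between the genotypes was not tested.

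ENSRNOG00000021151 and ENSRNOG00000043060 had a positive r in both genotypes, short of the adjusted threshold with all rats. In WT r was 0.656 and rho 0.709 (exact permutation p = 0.0594 and 0.0382, adjusted 0.263 and 0.191), and r was 0.733 without the 2 farthest rats. In Vegfb KO r was 0.722 and rho 0.539 (exact permutation p = 0.0205 and 0.0808, adjusted 0.205 and 0.323), and r was 0.921 without Vegfb KO control replicates 1 and 3. It passed the threshold without Vegfb KO control replicate 3 alone (r = 0.827, exact permutation p = 0.00451, adjusted 0.0465), was 0.533 without Vegfb KO control replicate 1, and was 0.47 over pooled log2 CPM with the group means kept. Vegfb KO control replicate 1 and Vegfb KO diabetic replicate 1 were low in both rows. The latter is the library with the lowest total and 25.5% of its count on another row, and without it r was 0.817 (exact permutation p = 0.102, adjusted 0.341). In Vegfb KO, ENSRNOG00000021151 and ENSRNOG00000021153 had an r of 0.652 and a rho of 0.685 (exact permutation p = 0.0356 and 0.0383, adjusted 0.237 and 0.191), and r was 0.241 without the 2 farthest rats. Without Vegfb KO diabetic replicate 1 it passed the threshold (r = 0.716, exact permutation p = 0.00174, adjusted 0.0347). In WT, ENSRNOG00000043060 and ENSRNOG00000023023 had an r of -0.651 and a rho of -0.770 (exact permutation p = 0.0658 and 0.0197, adjusted 0.263 and 0.191), and r was -0.649 without the 2 farthest rats.

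**Figure D5:**
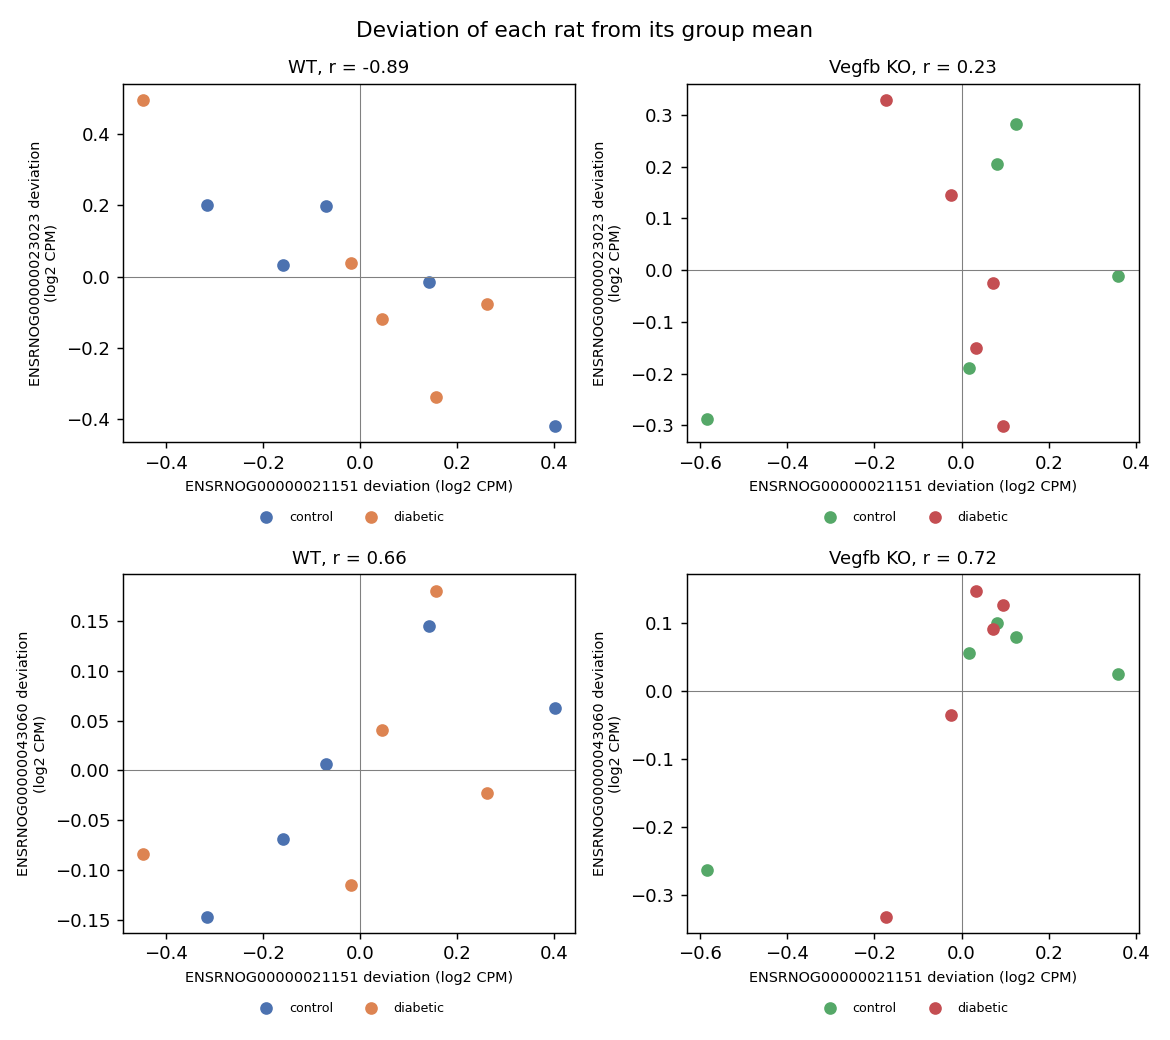
Deviation of each rat from its group mean in log2 CPM, with ENSRNOG00000021151 on the horizontal axis against ENSRNOG00000023023 (top) and ENSRNOG00000043060 (bottom), in WT (left) and Vegfb KO rats (right), 10 rats in each panel coloured by condition. The top left panel slopes down with r = -0.890, the top right has an r of 0.229 that is -0.450 without Vegfb KO control replicate 1, and both bottom panels slope up with r of 0.656 and 0.722.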

How the data were processed

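The authors sequenced directional paired-end ventricle libraries and deposited estimated counts per Ensembl gene ID. The submitters' processing notes name kallisto, edgeR, DESeq2 and the build mRatBN7.2. The estimated counts were rounded to whole numbers, filtered with filterByExpr by group, scaled by TMM and fitted with edgeR 4.0.16 in R 4.3.3 (robust quasi-likelihood, 4 group means, all 20 libraries, Benjamini-Hochberg over 14293 rows). Log2 CPM used a prior count of 2. Such estimates can divide reads among similar genes. DESeq2 1.42.0 and the other settings were alternatives, and figures were drawn with matplotlib 3.10.9. The code was tested on simulated data. In 40 pairs of libraries within a group the chi-square per row was at least 5.92, so none was treated as a duplicate. The members and lists were chosen with earlier results of these data known. Rows named besides the 5 were those called, next to the threshold, or most and least like ENSRNOG00000021156, and ENSRNOG00000065867 was picked with its values in view. Of 47357 RefSeq genes at hand 0 carried an Ensembl ID, so the planned lists of VEGF pathway genes and cell type markers were not analysed here. P-values rest on 5 rats per group.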

Additional observations from a re-analysis of the deposited data

Results flagged for a closer look

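In groups of 5 rats, the gap between an extreme rat and its nearest neighbour was set against the range of its group, for the CPM of the 5 rows and the total counts. Of 24 groups of values, 2 held a rat whose gap exceeded 0.71 of the range, where chance gives about 1.2. In Vegfb KO control replicate 1 the level of ENSRNOG00000043060 was 6.71 CPM, where the next rat had 8.21 CPM and the highest 8.66 CPM. That rat was also the lowest of its group in ENSRNOG00000021151, ENSRNOG00000021153 and ENSRNOG00000023023, at 11.8, 9.01 and 2.64 CPM. The total count was low in WT diabetic replicate 1, at 12965611, where the next library had 20780650. For none of the 5 rows did every diabetic rat move one way in WT and the opposite way in Vegfb KO.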

How the results depend on the processing

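For ENSRNOG00000021156 in WT the diabetes response kept its sign in all settings, from -0.41 to -0.33 with 1 library left out. It passed the threshold with DESeq2 (-0.354), in the fit of the 10 WT libraries (-0.359) and in that fit without WT diabetic replicate 2 (-0.327), the last added after the data were seen. An exact permutation test of the 10 WT rats, also added then, is not counted, since with every diabetic rat below every control rat its p was fixed beforehand. The smaller fits hold fewer samples, and a further cause was not tested. Of the 5 rows, the number called in WT, 0, was 2 with DESeq2, 1 in the WT fit, 1 without both libraries that stood apart, and 0 or 1 with 1 left out (all-row counts above). For the mean response, also 0, it was 1 with DESeq2, 1 without those libraries and 0 or 1 with 1 left out. In Vegfb KO it was 0 throughout, and the fit of those 10 libraries alone could not include ENSRNOG00000021156, which failed the filter. Changes of sign concerned responses near 0. ENSRNOG00000043060 in WT was 0.000 without a filter, -0.031 without the 4 libraries of lowest total (added after the totals were seen) and between -0.035 and 0.046 with single libraries left out. The mean responses of ENSRNOG00000021151 and ENSRNOG00000021153 were 0.023 and 0.004 without the libraries that stood apart, and from -0.092 to 0.022 and from -0.053 to 0.014 with 1 left out. That of ENSRNOG00000023023 in Vegfb KO ran from -0.142 to 0.004. The 6 rows called between genotypes in diabetic rats became 65 with DESeq2, 3 in the fit of those groups and 2 without the 4 libraries of lowest total, and between 2 and 181 with single libraries left out, with 181 without WT diabetic replicate 3. Of the 5 rows, 4 were called there, 2 without the 4 libraries, and from 2 to 4 with 1 left out, the count of 2 coming without WT diabetic replicate 4 or 5, Vegfb KO control replicate 2 or 4, or Vegfb KO diabetic replicate 1, 2, 3 or 5. The 1121 rows called for diabetes in Vegfb KO were 625 without the 4 libraries, and between 643 and 1244 with single libraries left out, with 643 without Vegfb KO diabetic replicate 3. The cause was not tested. With the replicate number as a block, edgeR called 0 of the 5 rows for diabetes in either genotype, and 1785 rows in WT against 1876. Rats of the same number had deviations with r from -0.257 to 0.264 over 30 pairs (median 0.0374), and 4 of 20 libraries were most like their own number. These values gave no clear sign that the numbers pair the rats, but they cannot settle it. The block changed the call of 1 of the 5 rows between genotypes in controls, from 4 called to 3. So did the fit of those groups alone, the fit without the 4 libraries and 8 of 20 fits with 1 library left out. Among correlations with the 2 farthest rats left out, ENSRNOG00000021156 had -0.238 with ENSRNOG00000021153 and 0.075 with ENSRNOG00000043060 in WT, and ENSRNOG00000021151 had -0.503 with ENSRNOG00000023023 in Vegfb KO. With 1 rat left out, also added after the data were seen, r of ENSRNOG00000021156 in WT ran from -0.377 to 0.121 with ENSRNOG00000021151, from -0.061 to 0.673 with ENSRNOG00000021153, from -0.430 to 0.077 with ENSRNOG00000043060 and from -0.032 to 0.593 with ENSRNOG00000023023, and that of ENSRNOG00000021151 with ENSRNOG00000023023 in Vegfb KO from -0.450 to 0.451. The number of the 20 relations past the threshold was 0 in the 4 alternatives and from 0 to 2 with 1 rat left out, 1 without WT diabetic replicate 5 and 2 without Vegfb KO control replicate 3 or Vegfb KO diabetic replicate 1. Each count of 2 includes ENSRNOG00000021151 with ENSRNOG00000023023 in WT, at an unchanged r of -0.890 and an adjusted p of 0.0465, as the adjustment spans both genotypes. Of 10 relations not described singly, 5 changed sign in an alternative and 6 with a rat left out. Low counts limit ENSRNOG00000021156 in Vegfb KO, with 0 to 25 counts in a library, and ENSRNOG00000023023, with 20 counts in Vegfb KO diabetic replicate 1.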
